A study of Mus musculus with 4 samples.

Results

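Dividing coronary endothelial cells were cells of the mouse heart that carried transcripts of coronary endothelium and of mitosis at the same time. They were picked from the unique molecular identifiers (UMIs, each standing for 1 captured transcript) of 3 sets of genes. The sum D added Top2a, Ube2c, Birc5, Nusap1, Cenpf, Prc1 and Ccnb1, which act in chromosome condensation, the spindle and mitotic exit. The sum C added the coronary genes Fabp4, Cldn5, Aplnr and Gpihbp1, and N added the endocardial genes Npr3, Tmem108, Cpe and Gsta4. A coronary cell had C of at least 2 and more C than N, and it was called dividing when D was at least 2, or at least 6 in the deeper P2 library. This gave 955 dividing cells among 9687 coronary cells and 21920 barcodes in all. They were compared with the 7724 coronary cells with D of 0, and the cells in between were left out of both groups.

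Hearts of C57Bl6J mice were dissociated at embryonic day 12 (E12), embryonic day 15 (E15), postnatal day 2 (P2) and 8 weeks (Adult), and endothelial cells were sorted as CD31+/CD45- and frozen before droplet sequencing. Each stage was 1 library of pooled animals, 37, 48, 21 and 6 of them in order of age. The labels name no engineered allele and no treatment, and the 2 embryonic samples were cleared of dead cells with a kit after thawing whereas P2 and Adult cells were sorted again. Digestion differed between stages, embryonic cells were collected over several rounds of sorting, and red blood cells were lysed at Adult alone. With 1 library per stage no difference could be tested against replicates, and every interval below covers counting error alone. The dividing cells numbered 39 of 119 coronary cells at E12, 253 of 1276 at E15, 625 of 4245 at P2 and 38 of 4047 at Adult. Together they held 109364, 452987, 4871971 and 141280 UMIs in the same order, so P2 values were the most precise.

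Endothelial cells of the coronary vessels grow by sprouting and by division of plexus cells, and division becomes rare once the vessels have matured. A dividing cell copies its DNA in S phase and separates the chromosomes in G2 and M phase. Genes of the second step are switched on late in the cycle, when the transcription factors MYB and FOXM1 act at their promoters. Of the short elements in these promoters, the CCAAT box and the cell cycle homology element TTTGAA are the best known. D-type cyclins start the cycle, and CDK inhibitors such as p57, the product of Cdkn1c, hold it back. Arterial endothelial cells are known to leave the cycle as they acquire their identity.

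The promoters of 2 of the 7 genes behind D are shown because these genes chose the cells together and their promoters differ in these letters. The sequences were the 150 bases just before the RefSeq start of each gene (build GRCm38.p6), which lie outside the GENCODE M21 gene as well, written 5′ to 3′ on the gene's strand. Capitals mark the element TTTGAA, the box CCAAT and the E2F-like letters TTTCCCG on either strand.
Top2a, chr11:99024190-99024339, - strand: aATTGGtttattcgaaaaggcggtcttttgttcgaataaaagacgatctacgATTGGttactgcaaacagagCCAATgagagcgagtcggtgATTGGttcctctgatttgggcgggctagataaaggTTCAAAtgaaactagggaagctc
Birc5, chr11:117849087-117849236, + strand: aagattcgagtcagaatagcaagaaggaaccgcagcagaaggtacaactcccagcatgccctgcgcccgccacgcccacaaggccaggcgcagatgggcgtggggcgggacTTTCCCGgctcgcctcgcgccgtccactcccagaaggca
In Top2a the TTTGAA element lay 23 bases before the start, after a run of CCAAT boxes, and Birc5 had neither in this stretch but held TTTCCCG 39 bases before the start. In Ube2c it lay 29 bases before the RefSeq start, which is inside the gene as GENCODE M21 places it. Over the 250 bases before the start, TTTGAA was found in 3 of the 7 genes (Top2a, Ube2c and Prc1) and in 16% of all 32851 RefSeq mouse promoters. CCAAT was found in 5 of the 7 genes and in 33.8% of all promoters, and TTTCCCG in 2 of the 7 (Birc5 and Nusap1) and in 2.75% of all. The other E2F letters searched, TTTGGCG in 1.26% and TTCCCGC (whose letters overlap TTTCCCG) in 3.82% of all promoters, were in none of the 7. A gene counted when any of its promoters matched (8 promoters for the 7 genes), whereas the share over all was per promoter. A match describes letters only.

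The levels of the chosen genes followed from the rule and are given as a description. Ube2c, which feeds the ubiquitin ligase of mitotic exit, stood at 539 CPM (counts of a gene per 1000000 UMIs of the group) in E12 dividing cells, 788 at E15, 626 at P2 and 566 at Adult. Top2a, the topoisomerase that untangles chromosomes, stood at 247, 528, 565 and 623 CPM at the same stages. The survivin gene Birc5 stood at 439, 625, 757 and 587 CPM, and the kinetochore gene Cenpf at 201, 256, 339 and 453 CPM. Each of the 4 had 0 UMIs in the D = 0 cells by construction. The median D was 4 at E12 and E15, 20 at P2 and 8 at Adult, and the highest single cells reached 13, 26, 130 and 33.

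The endothelial label was checked against genes outside the rule. Pecam1, which encodes the sorted CD31, had a UMI in 13 of 39 dividing cells at E12, 102 of 253 at E15, 586 of 625 at P2 and 29 of 38 at Adult. Cdh5, the endothelial cadherin, had one in 29, 149, 618 and 34 of them. Among all barcodes, Pecam1 had a UMI in 838 of 5732 at E12, 1410 of 6062 at E15, 5354 of 5884 at P2 and 2783 of 4242 at Adult. No background share was taken off these counts. Ptprc, which encodes the excluded CD45, had a UMI in 1 dividing cell, at Adult. The coronary label was weak at E12: the median C was 3 among its dividing cells against 9 at E15, 128 at P2 and 44 at Adult, and the coronary genes stood at 899 CPM in near-empty E12 barcodes, against 80.4 CPM over all E12 cells and 1362 CPM in the dividing cells. The near-empty barcodes included 5996 that were cells of the E15 library, with 1968 CPM of coronary genes (1704 to 2260), and those that were cells of no other library had 724 CPM (658 to 794). Free RNA, transcripts of E15 cells and the E12 cells' own transcripts cannot be told apart in the E12 coronary call.

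Dividing cells were deeper than D = 0 cells at every stage, and a deeper cell also reaches the D threshold more easily. Median UMIs were 2521 against 1449 at E12, 1609 against 994 at E15, 7460 against 4059.5 at P2 and 2902 against 1469 at Adult. Between 9.6% (P2) and 28.9% (Adult) of the dividing cells exceeded the study's own upper limits on UMIs or genes, against 0% to 2.18% of the D = 0 cells. A doublet caller scored 12.8%, 10.3%, 11.5% and 5.26% of dividing cells over 0.15 at E12, E15, P2 and Adult, against 0%, 8.94%, 3.94% and 2.48% of D = 0 cells. In all, 21 of the 955 cells had a barcode that was also a cell of another library, where 25 to 60 barcodes were shared per pair of libraries. Leaving these out, or the cells over the doublet score or the study's limits (there with mitochondrial share as well), is part of the alternatives reported with the results that depend on them.

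A few dividing cells carried another cell type. At E15, 1 cell with C of 2 and D of 2 held 2045 erythroid UMIs among 4013. Another E15 cell held 19 fibroblast UMIs among 1650, and of 2 P2 cells with over 1% fibroblast UMIs the higher held 223 among 10194. At Adult, 1 cell with C of 2 and D of 20 held 249 leukocyte UMIs among 11432 and the 2 Ptprc UMIs. Just inside the threshold, the 65 E15 cells with D of 2 had 6145 CPM of G2/M genes outside the rule and 88.8 CPM of Mki67, and the 151 cells just outside, with D of 1, had 4274 and 66.6 CPM. At P2, the 39 cells with D of 6 had 6903 CPM of G2/M genes and the 38 cells with D of 5 had 7340, against 1579 in the D = 0 cells. At E12, 8 cells with D of 2 had 3840 CPM and 25 with D of 1 had 3641. At Adult, 5 cells with D of 2 had 4269 CPM and 52 with D of 1 had 1914, whereas Mki67 had 0 UMIs in the former and 7 in the latter. G2/M levels just inside and just outside the threshold were thus close at E12 and P2 and further apart at E15 and Adult.

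By the rule, dividing cells made up 32.8% of coronary cells at E12 (95% exact binomial interval 24.4 to 42.0), 19.8% at E15 (17.7 to 22.1), 14.7% at P2 (13.7 to 15.8) and 0.939% at Adult (0.665 to 1.29). These shares cannot be ordered as they stand, since depth and the P2 threshold differed. Near-empty E12 barcodes carried 614 CPM of the 7 genes of D (558 to 673). All E12 coronary cells carried 849 CPM and the dividing ones 1746 CPM. The part of free transcripts in the E12 share was not tested. When each cell was thinned to 500 UMIs and D of at least 2 was asked at every stage, the shares were 8.06%, 8.91%, 7.02% and 0.443%. The intervals at E12 (4.10 to 14.9), E15 (7.4 to 10.7) and P2 (6.27 to 7.83) overlapped, and that at Adult (0.264 to 0.702) lay below all 3. No coronary cell was too shallow at E12, P2 or Adult, and 69 were left out at E15. At 1000 UMIs the order differed, with 20.6% at E12 (13.4 to 30.0), 20.5% in E15 cells (17.6 to 23.5), 11.6% at P2 (10.7 to 12.6) and 0.693% at Adult (0.423 to 1.04), so the P2 interval lay below those of E12 and E15. That depth left out 18, 527, 0 and 972 cells. Endocardial cells thinned to 500 UMIs gave 6.76%, 3.53%, 1.25% and 0.0578%, so the coronary interval lay above the endocardial one at E15 (2.72 to 4.54) and P2 (0.736 to 1.90) and overlapped it at E12 and Adult. At 1000 UMIs they gave 14.8%, 8.81%, 2.02% and 0.204%.

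**Figure D1:**
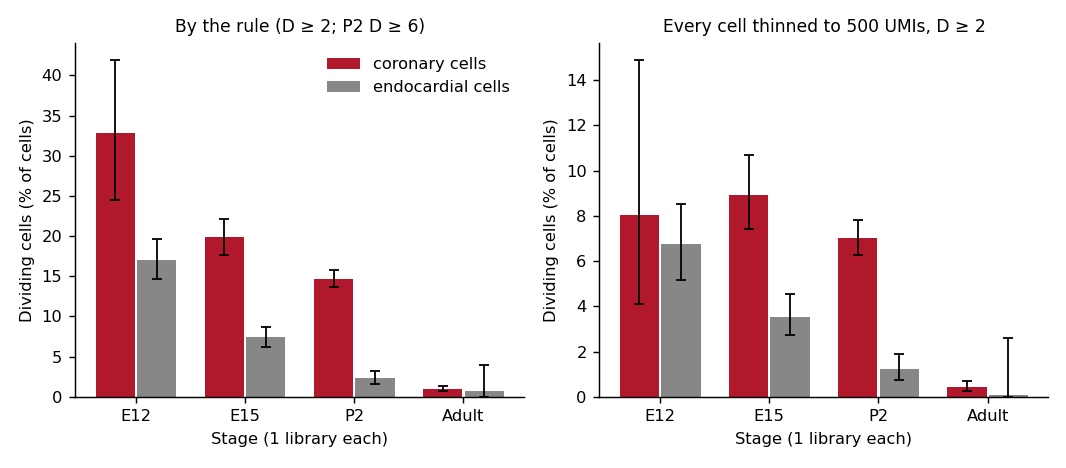
Percentage of coronary (red) and endocardial (grey) cells called dividing at each stage, by the rule (left) and after thinning every cell to 500 UMIs with D of at least 2 (right); bars start at 0 and error bars are 95% exact binomial intervals for 1 library per stage. After thinning, coronary shares sit between 7.02% and 8.91% from E12 to P2 and at 0.443% at Adult, while the endocardial share goes from 6.76% at E12 to 1.25% at P2.

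Genes outside the rule were also read over all coronary cells, dividing or not, and were lowest at Adult. Mki67, the classical proliferation marker, stood at 51.1 CPM at E12 (27.2 to 87.4), 46.2 in E15 cells (36.5 to 57.7), 43.2 at P2 (40.5 to 46.0) and 8.03 at Adult (6.08 to 10.4). The first 3 intervals overlapped and the Adult one did not reach them. Cdk1, the kinase of mitosis, stood at 126, 139, 158 and 14.5 CPM, and Tk1, a thymidine kinase of S phase, at 70.8, 75.8, 111 and 7.33 CPM. From E15 to P2, Tk1 was higher at P2 with intervals apart (63.2 to 90.1 and 107 to 115), as was Rrm2, the nucleotide reductase gene of S phase, with 66.9 and 146 CPM after 110 at E12. The S phase list summed to 2056, 1555, 2306 and 787 CPM and the G2/M list to 4348, 3940 and 4576 up to P2 and 1289 at Adult. Pcna, the clamp of the replication fork, differed less, with 118, 97.1, 162 and 82.6 CPM. Its Adult interval (76.0 to 89.6) overlapped those at E12 (79.6 to 168) and E15 (82.8 to 113).

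Within the dividing cells the G2/M list held more transcripts than the S phase list, as the rule's mitotic genes favour. More UMIs fell in the 49 G2/M genes than in the 44 S phase genes in 35 of 39 cells at E12, 227 of 253 at E15, 544 of 625 at P2 and 32 of 38 at Adult. A minority of 3, 19, 78 and 6 cells had more S phase UMIs. The D = 0 cells had the same order of the lists, with 2461 against 1826 CPM at E12 and 1760 against 1179 at E15. At P2 they had 1579 against 1253 CPM and at Adult 1040 against 703. The order of the lists in a cell therefore does not give its phase by itself. Summed over cells, the G2/M list was 2.53-fold higher in dividing than in D = 0 cells at E12 (2.17 to 2.97), 4.91-fold at E15 (4.64 to 5.19), 8.69-fold at P2 (8.55 to 8.83) and 12.3-fold at Adult (11.7 to 13). The S phase list was 1.13-fold (0.920 to 1.39), 1.85-fold, 3.75-fold and 6.69-fold higher, and the E12 value was 0.729 when cells with 2 or more artery UMIs were left out. Against D = 0 cells that also lacked 6 other cycling genes (Mki67, Cdk1, Tk1, Rrm2, Pcna and Mcm5), a choice that itself lowers the D = 0 level and that was weighted to equal depth wherever it is given, it was 3.0 at E15 and 7.26 at P2. At E12 the near-empty barcodes carried 3587 CPM of G2/M genes, or 3626 CPM in those that were cells of no other library, against 2461 CPM in D = 0 and 6236 CPM in dividing cells. The part of these transcripts in the E12 ratio was not tested.

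Single genes outside the rule differed as widely. Mki67 stood at 91.4 CPM in dividing and 22.7 in D = 0 cells at E12, 117 against 9.90 in E15 cells, 161 and 4.03 at P2, and 319 and 0.732 at Adult. Hmgb2, a chromatin protein abundant in cycling cells, was measured well at all stages, with 1527 against 454 CPM at E12, 2296 against 429 at E15, 3433 against 411 at P2 and 2725 against 132 at Adult. Both genes were higher in dividing cells at each stage, and the gap was widest at Adult, where their D = 0 level was also lowest. The histone variant gene H2afz was 1.28-fold higher at E12 (1.05 to 1.57), 2.55-fold at E15, 5.25-fold at P2 and 10.2-fold at Adult. Tubb5, a tubulin, was 1.46-fold, 2.17-fold, 4.51-fold and 6.24-fold higher. Of the cell cycle genes outside the rule with at least 20 expected UMIs, those at least 1.5-fold higher were 17 of 45 at E12 (37.8%), 81 of 110 at E15 (73.6%), 281 of 310 at P2 (90.6%) and 20 of 28 at Adult (71.4%). Those lower were 1, 2, 1 and 3 of them (2.22%, 1.82%, 0.323% and 10.7%). Genes outside the cell cycle gave 9.3%, 4.62%, 7.95% and 7.48% in the same direction.

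With all cells entered, the other cell cycle lists were above 1 at every stage, with the widest ratios at Adult. Replication and licensing genes, such as the MCM helicase, had 1.31 at E12, 1.92 at E15, 3.93 at P2 and 7.78 at Adult, but 0.887 at E12 when D = 0 cells were weighted to the depth of the dividing cells. Cyclins and their kinases had 1.66, 2.21, 3.32 and 3.98, and the other genes of mitosis 1.78, 2.75, 4.61 and 6.14. Histone genes had 1.32, 1.86, 2.19 and 3.14, and chromatin and tubulin genes 1.42, 1.95, 2.96 and 3.62. Some genes stand in several of these lists.

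D-type cyclins did not follow the mitotic genes. Ccnd1, the cyclin that answers growth factors, stood at 183 CPM in dividing and 168 in D = 0 cells at E15, 354 and 374 at P2, and 311 and 265 at Adult, and the intervals of all 3 ratios (0.827 to 1.42, 0.896 to 1.00 and 0.852 to 1.59) reached 1. Ccnd2 stood at 219 against 181 CPM at E12, but at 70.6 against 207 at E15, 47.2 against 200 at P2 and 142 against 254 at Adult. Its ratio was 0.341 at E15 (0.228 to 0.497), 0.236 at P2 (0.206 to 0.271) and 0.557 at Adult (0.339 to 0.862), and at E12 the interval reached 1 (0.616 to 2.44). Ccnd3 had a ratio of 0.835 at E15 (0.636 to 1.09), 1.22 at P2 (1.13 to 1.3) and 1.28 at Adult (0.894 to 1.78).

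The CDK inhibitors and related brakes of the cycle, 14 genes, summed to ratios of 1.11, 0.819, 0.892 and 0.882, and single members split. The E12 value ran from 0.708 without cells with 2 or more artery UMIs to 2.04 at equal depth. Cdkn1c stood at 272 CPM in dividing and 456 in D = 0 cells at E15, 153 and 413 at P2, and 113 and 532 at Adult, which gave ratios of 0.595 (0.484 to 0.727), 0.369 (0.342 to 0.399) and 0.213 (0.122 to 0.346). At E12 it stood at 503 against 295 CPM, a ratio of 1.71 (1.05 to 2.83), and this turned to 0.737 when cells with any endocardial UMI were left out and to 0.528 without cells with 2 or more artery UMIs, but was 2.98 at equal depth and 3.19 with C of at least 4. Without cells with 2 or more artery UMIs the ratio was 0.341 at E15, 0.751 at P2 and 0 at Adult, the last on 7 dividing cells. Within the study's limits the E15 ratio was 0.376. Against D = 0 cells that also lacked 6 cycling genes the P2 ratio was 0.218. Cdkn2c, which encodes p18 and binds CDK4 and CDK6, was 19.5-fold higher at P2 (16.9 to 22.7), with 312 CPM against 15.9, and Cdkn2d, its p19 relative, was 6.12-fold higher (5.42 to 6.93). Both had fewer than 20 expected UMIs at the other stages, where Cdkn2d gave 33 UMIs in dividing against 9 in D = 0 cells at E15 and 45 against 229 at Adult, or 319 against 33.5 CPM. Cdkn1a, the p21 gene, had a ratio of 1.35 at P2 (1.24 to 1.46) and 0.844 at Adult (0.676 to 1.04). The antiproliferative gene Btg2 was lower, with ratios of 0.425 at E15 (0.276 to 0.636), 0.486 at P2 (0.458 to 0.515) and 0.522 at Adult (0.391 to 0.682).

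Outside the cell cycle, more genes were lower than higher from E15 on, a direction that held at P2 and Adult in each alternative run and turned at E15 in 2 of them. The alternative with no filter cannot decide the direction. In it a gene with no UMI in dividing cells counted as lower, and D = 0 cells held most UMIs from E15 on. Past 1.5-fold, 61 of 656 genes were higher and 39 lower at E12 (9.3% and 5.95%), 123 and 191 of 2660 at E15 (4.62% and 7.18%), 758 and 1609 of 9538 at P2 (7.95% and 16.9%), and 83 and 299 of 1110 at Adult (7.48% and 26.9%). Of these, the interval stayed off 1 for 29 and 16 genes at E12, 101 with 137 in E15 cells, 740 and 1505 at P2, and 83 and 268 at Adult. At E15 there were 88 higher and 62 lower genes once cells with 2 or more artery UMIs were left out, and 234 and 230 against D = 0 cells that also lacked 6 other cycling genes. A gene entered when its CPM over both groups pooled gave at least 20 expected UMIs in the dividing cells. At Adult the D = 0 cells held nearly all UMIs, so the filter followed their level and genes high only in dividing cells, such as Mki67, did not enter. The median gene outside the cycle lay close to a log2 ratio of 0 at E12, at -0.03 at E15, -0.13 at P2 and -0.17 at Adult. With the median set to 0, higher genes were 46.8% of all called at P2 and 38.7% at Adult, against 32.0% and 21.7% without.

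**Figure D2:**
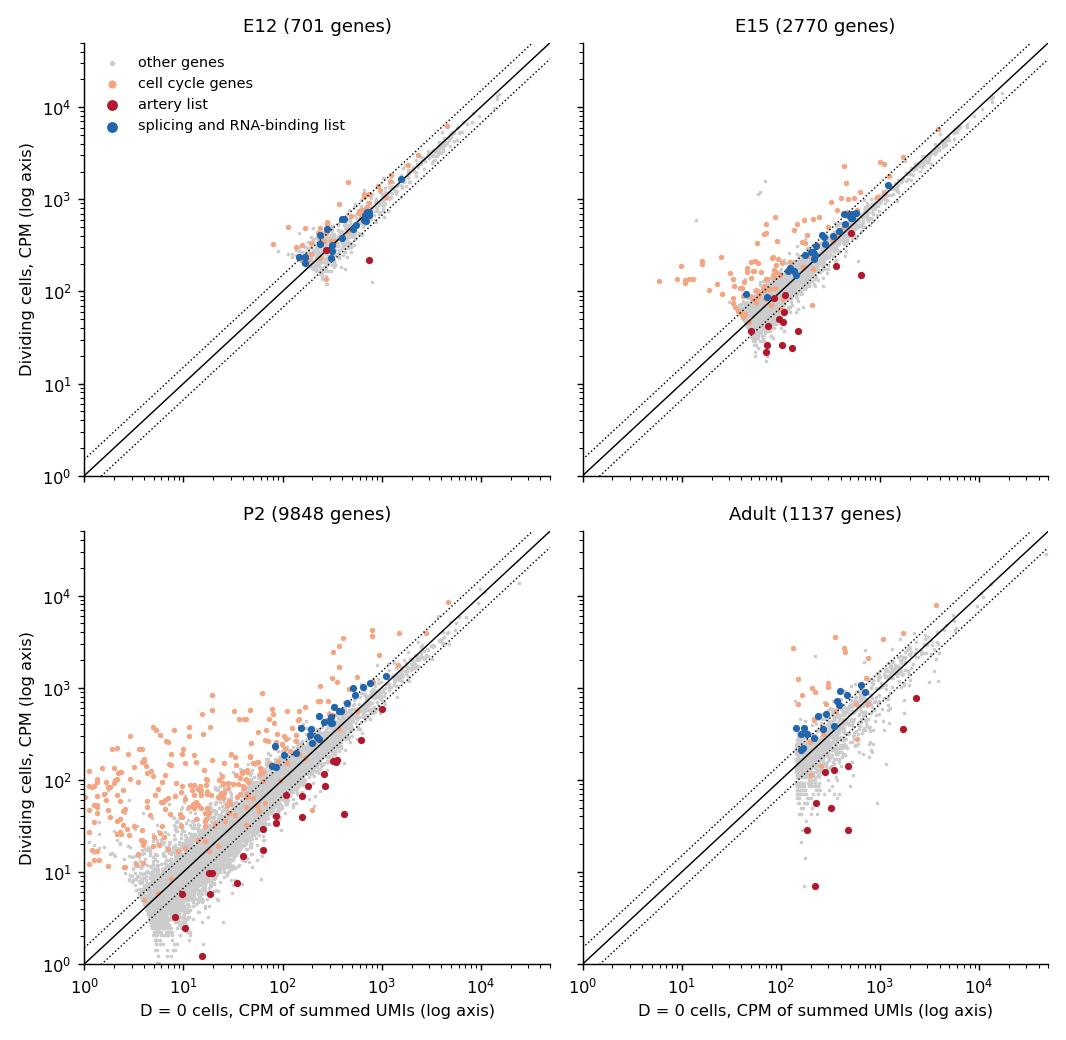
Each point is a gene with at least 20 expected UMIs, placed by its CPM in D = 0 cells (horizontal, log axis) and in dividing coronary cells (vertical, log axis) at each stage, without the genes of the rule and genes with 0 UMIs in either group; the solid line marks equal levels and the dotted lines 1.5-fold. Artery genes (red) lie mostly below the line, cell cycle genes (orange) mostly above it, and the splicing and RNA-binding genes (blue) mostly above it at P2, with 16 of 26 past 1.5-fold at P2.

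Artery genes were lower in dividing cells, and from E15 on their ratio was the lowest among the lists of endothelial genes and cell functions, lists of other cell types aside. The list of 26 artery genes summed to 1371 CPM in dividing against 2850 CPM in D = 0 cells at E15, 2020 against 4670 at P2 and 1784 against 7637 at Adult. The ratios were 0.481 (0.440 to 0.525), 0.433 (0.423 to 0.442) and 0.234 (0.206 to 0.264). Lower by at least 1.5-fold were 11 of 15 members at E15 (where 7.18% of genes outside the cycle were lower), all 25 with enough UMIs at P2 (16.9%) and all 11 at Adult (26.9%), and none was higher. The median member lay at a log2 ratio of -0.94, -1.20 and -2.25. At E12 the list had a ratio of 0.424 (0.338 to 0.529) on 123 against 234 UMIs, but 0.945 when D = 0 cells were weighted to the depth of the dividing cells and 0.988 in cells with C of at least 4, where 17 dividing and 12 D = 0 cells entered. Near-empty E12 barcodes carried 3109 CPM of artery genes, above the 1125 CPM of dividing and the 2654 CPM of D = 0 cells, and 3001 CPM without barcodes of other libraries' cells, and the part of these transcripts in the E12 ratio was not tested.

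The artery genes covered several functions. Gja4, the connexin 37 of arterial junctions, had 37.5 CPM in dividing and 149 in D = 0 cells at E15, 39.4 and 157 at P2, and 0 UMIs against 428 at Adult. Its ratio was 0.251 at E15 (0.142 to 0.416) and 0.251 at P2 (0.215 to 0.291). Cxcl12, the chemokine of arterial endothelium, had 46.4 against 104 CPM at E15, 42.9 against 418 at P2 and 354 against 1688 at Adult, and its ratio at P2, 0.103 (0.0889 to 0.118), was among the lowest of any gene. The Notch ligand gene Jag1 had ratios of 0.257 at E15 and 0.268 at P2, and the Notch target gene Hey1 had 0.565 and 0.402. Sox17, a transcription factor of arterial fate, chosen here after its values were seen, had ratios of 0.558, 0.443 and 0.433 at E15, P2 and Adult, and the connexin 40 gene Gja5, likewise, had 0.377 at P2 (0.290 to 0.482).

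Genes of the vessel wall followed. Eln, which encodes elastin, had 219 CPM in dividing against 737 in D = 0 cells at E12, 150 against 647 at E15 and 269 against 618 at P2, with ratios of 0.298 (0.178 to 0.482), 0.232 (0.178 to 0.298) and 0.435 (0.410 to 0.461). At Adult it had 0 UMIs in dividing against 550 in D = 0 cells. Fbln5, a fibulin of elastic fibres, had ratios of 0.189 at E15 and 0.473 at P2 and no UMI in the 38 Adult dividing cells against 1767 in D = 0 cells, which is at least 12.2-fold lower when 3 UMIs are put in place of 0. Mgp, the matrix Gla protein gene, had ratios of 0.522, 0.459 and 0.0591 at E15, P2 and Adult. Tm4sf1, the most abundant artery list gene at P2 and Adult, had 1.04 at E12, 0.842 at E15, 0.583 at P2 and 0.335 at Adult. Every artery gene named was lower at P2, as were those with a value given here at Adult, and Tm4sf1 showed the smallest gap at E12 and E15.

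Single cells showed how the gap was spread. Cells with over 1% of their UMIs in artery genes were 0 of 39 dividing against 9 of 55 D = 0 cells at E12, 1 of 253 against 39 of 872 at E15, 15 of 625 against 338 of 2840 at P2 and 0 of 38 against 1075 of 3957 at Adult. The median cell also differed, with 820 CPM of artery genes in dividing and 1176 in D = 0 cells at E15, 1080 and 1996 at P2, and 1286 and 5184 at Adult. Fewer arterial cells among those dividing and a lower level within a cell cannot be told apart fully from these sums. Among endocardial cells the same list had a ratio of 0.875 at E12 (0.792 to 0.965), 0.787 in E15 cells (0.733 to 0.844), 0.911 at P2 (0.872 to 0.952) and 0.283 in the 1 dividing endocardial cell at Adult (0.189 to 0.407). The difference between the 2 kinds of cell was not tested.

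Capillary genes differed by stage. The mature capillary list of 24 genes, which holds fatty acid carriers and surface enzymes of working capillaries, had 3594 CPM in dividing and 3494 in D = 0 cells at E12, 7764 against 8143 in E15 cells, 14031 and 16878 at P2, and 15048 and 30229 at Adult. The ratio was 1.03 at E12 (0.884 to 1.2), 0.953 in E15 cells (0.916 to 0.992), 0.831 at P2 (0.824 to 0.839) and 0.498 at Adult (0.477 to 0.520). At Adult 18 of 22 members were lower by 1.5-fold, against 26.9% of genes outside the cycle. At P2 4 of 23 were lower (16.9% of genes outside the cycle) and at E15 1 of 16 (7.18%), both near the share of all genes. With D = 0 cells weighted to the same depth the Adult ratio was 0.638 and the P2 ratio 0.956. The list includes Gpihbp1, a gene of C, so its sums and counts rest in part on values that chose the cells.

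Single capillary genes showed the same spread. Aqp7, an aquaglyceroporin, had 74.7 against 239 CPM at P2 and 177 against 776 at Adult, with ratios of 0.312 (0.279 to 0.348) and 0.228 (0.148 to 0.337). Timp4 and Car4, an inhibitor of matrix proteases and a carbonic anhydrase, had ratios of 0.531 and 0.458 at P2 and 0.184 and 0.207 at Adult. Ly6c1 had 1.18 at E15, 0.687 at P2 and 0.310 at Adult, and the fatty acid transporter gene Cd36 had 1.07, 0.8 and 0.438 at the same stages. Fabp5, a fatty acid binding protein gene, went the other way, with 1.66 at E12 (1.28 to 2.16), 1.03 in E15 cells (0.962 to 1.1), 1.18 at P2 (1.15 to 1.21) and 1.33 at Adult (1.14 to 1.54), and its E12 value became 0.988 in cells with C of at least 4. Kdr, the VEGF receptor gene, was close to 1 at E15 (0.958) and P2 (0.942) and at 0.431 at Adult (0.317 to 0.572), or 1.36 in the 7 Adult dividing cells with at most 1 artery UMI.

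Angiogenic and tip cell genes were not a group that marked the dividing cells. Their 25 gene list had a ratio of 0.921 at E12 (0.760 to 1.12), 0.769 in E15 cells (0.724 to 0.817), 0.885 at P2 (0.869 to 0.901) and 0.734 at Adult (0.667 to 0.805). Members lower by 1.5-fold were 5 of 17 at E15 (7.18% of genes outside the cycle) and 7 of 25 at P2 (16.9%). The member past 1.5-fold in the other direction at P2 was Kcne3, a potassium channel subunit gene, with 23.8 against 12.7 CPM and a ratio of 1.87 (1.46 to 2.39), which was 0.810 in the 31 dividing cells with at most 1 artery UMI. Kcne3 had 1.61 at E12 and 1.35 at E15, where both intervals reached 1. Esm1, a tip cell gene, was lower at P2, with 2.26 against 10.9 CPM and a ratio of 0.207 (0.101 to 0.383). Cxcr4, the receptor of CXCL12, had ratios of 0.248 at E15 (0.103 to 0.515) and 0.433 at P2 (0.238 to 0.740), and the P2 value was 1.00 against D = 0 cells that also lacked 6 cycling genes. Col4a1, the most abundant of the list from E12 to P2, had ratios of 0.943, 1.00, 1.00 and 0.930 at the 4 stages. Apln, the apelin gene, named after its values were seen, had 108 against 79.6 CPM at P2 (1.36, 1.22 to 1.51). At Adult it had 24 UMIs among 141280 in dividing cells against 189 among 6834816 in D = 0 cells. Its share of UMIs was thus higher in dividing cells at Adult, where it had too few expected UMIs to count.

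Vein genes had ratios of 0.778 at E12, 0.948 at E15 (0.846 to 1.06), 0.700 at P2 (0.680 to 0.721) and 0.605 at Adult (0.512 to 0.710), with 1.21 in the 7 Adult dividing cells with at most 1 artery UMI. Vwf, the clotting carrier gene of large vessels, was lower at P2, with a ratio of 0.229 (0.170 to 0.302). Nrp2, a VEGF and semaphorin co-receptor gene, had 347 against 178 CPM at Adult, a ratio of 1.94 (1.43 to 2.59), and 0.967 at P2 (0.886 to 1.05). The 26 genes shared by all endothelium had ratios of 0.770, 0.881, 0.802 and 0.702, with 12 of 21 members lower by 1.5-fold at Adult (26.9% of genes outside the cycle). In the 7 Adult dividing cells with at most 1 artery UMI their ratio was 1.09. They include Cldn5, a gene of C, so their ratios rest in part on values that chose the cells. Pecam1 itself had 0.836 at E15 (0.679 to 1.02), 0.714 at P2 (0.682 to 0.747) and 0.816 at Adult (0.657 to 1.00).

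Signalling and stress lists had ratios nearer 1 than artery genes from E15 on. Notch pathway genes had a ratio of 0.641 at E12 (0.457 to 0.896), 0.811 at E15, 0.722 at P2 and 0.572 at Adult, with 5 of 14 members lower and 1 higher at P2 (16.9% and 7.95% of genes outside the cycle). The E12 Notch ratio turned to 2.12 with C of at least 4 and to 1.06 without cells with 2 or more artery UMIs. Dll4, the ligand of sprouting cells, had 31.2 against 51.5 CPM at P2 (0.606, 0.505 to 0.724). VEGF ligands and receptors had 0.897, 0.935, 0.895 and 0.535 (1.39 in those 7 cells), and Flt1 had 0.736 at E15, 0.705 at P2 and 0.281 at Adult. Flow-response genes had 0.943, 0.809, 0.698 and 0.711, with 0.737 at P2 for Klf2 and 0.619 for Klf4, the factors induced by shear stress. The E12 flow-response ratio turned to 1.79 at equal depth and to 2.22 without cells with 2 or more artery UMIs. BMP and Id genes had 0.893, 0.975, 0.785 and 0.723, with 6 of 14 lower at P2 (16.9% of all). Interferon genes had 0.653, 0.760, 0.738 and 0.701, MHC genes 0.973, 0.828, 0.892 and 1.26, and p53 targets 1.17, 1.05, 1.01 and 1.05. In the 7 Adult dividing cells with at most 1 artery UMI, MHC genes had 0.818 and p53 targets 0.646. Without cells with 2 or more artery UMIs, p53 targets had 0.580 at P2. At E12, MHC genes had 1.61 at equal depth. Against D = 0 cells that also lacked 6 cycling genes, E12 p53 targets had 2.06 and interferon genes 0.328. Immediate early genes, which also respond to dissociation of the tissue, had 1.08 at E12, 0.888 at E15, 0.627 at P2 (0.618 to 0.635) and 0.826 at Adult, with 10 of 15 lower at P2 (16.9% of all), among them Fos with 0.651.

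**Figure D3:**
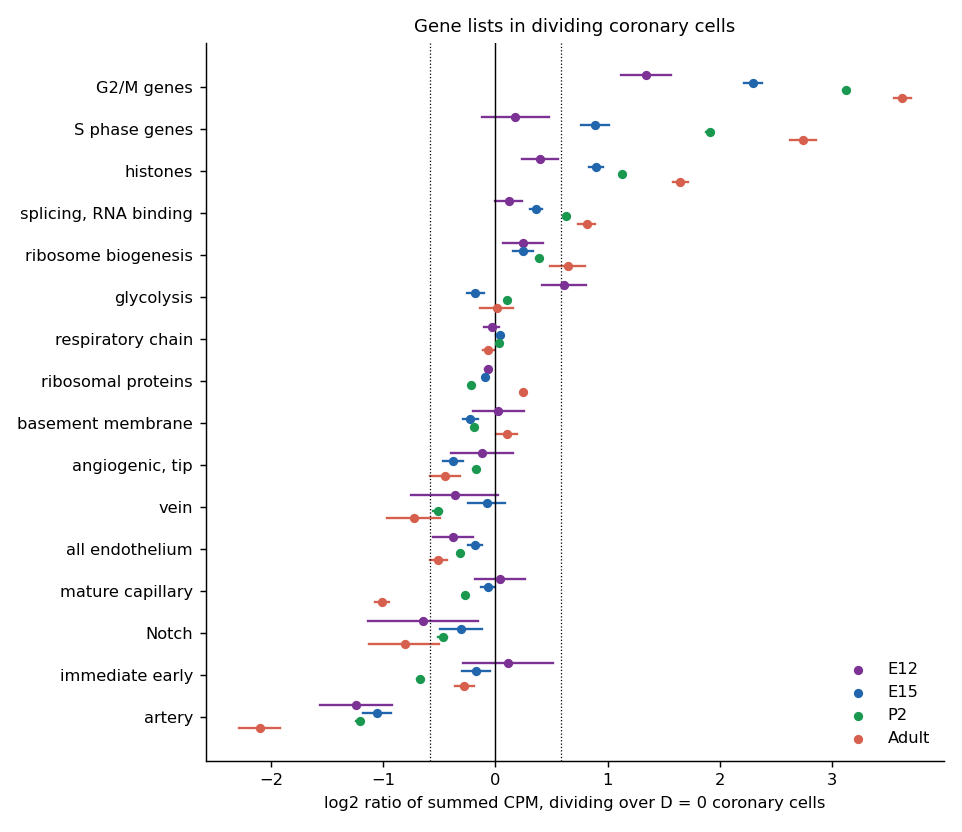
Log2 ratio of summed CPM in dividing over D = 0 coronary cells for 16 gene lists (rows) at 4 stages (colours), with 95% intervals for counting error as horizontal bars; the solid line is no difference and the dotted lines are 1.5-fold. Artery genes lie left of the lower dotted line at all 4 stages, mature capillary genes only at Adult, and splicing genes move right from a ratio of 1.08 at E12 to 1.76 at Adult.

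Splicing and RNA-binding genes had the highest ratio among the lists of endothelial genes and cell functions outside the cell cycle from E15 on, but not at E12. The 26 splicing and RNA-binding genes summed to 11741 CPM in dividing and 10821 in D = 0 cells at E12, 11033 against 8593 in E15 cells, 13165 and 8516 at P2, and 10603 and 6036 at Adult. The ratios were 1.08 (0.997 to 1.18), 1.28 (1.24 to 1.33), 1.55 (1.53 to 1.56) and 1.76 (1.67 to 1.85). Higher by 1.5-fold were 4 of 21 members at E12 (9.3% of genes outside the cycle), 3 of 26 at E15 (4.62%), 16 of 26 at P2 (7.95%) and 11 of 17 at Adult (7.48%), and none was lower. The median member lay at a log2 ratio of 0.01, 0.35, 0.64 and 0.77. Hnrnpab, a nuclear ribonucleoprotein gene, had 613 against 397 CPM at E12, 413 against 262 at E15 and 487 against 231 at P2, with ratios of 1.54 (1.01 to 2.39), 1.57 (1.3 to 1.90) and 2.11 (1.99 to 2.22). The helicase gene Ddx39 had 2.08 at E15 (1.33 to 3.24) and 2.76 at P2 (2.54 to 3.01), and Snrpd1, a core protein of the spliceosome, had 0.967 at E12, 1.44 at E15 and 2.36 at P2. Ribosome biogenesis genes had ratios of 1.19, 1.18, 1.31 and 1.56. Genes for ribosomal proteins had 0.953, 0.937 and 0.858 at E12, E15 and P2 and 1.19 at Adult.

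Of 654 genes outside the cell cycle with enough UMIs at E12, E15 and P2, 10 were higher and 19 lower with the interval off 1 at all 3. The 10 were Myef2, Alyref, Lsm5, Hnrnpab, Sumo2, Rbm8a, Npm1, Ppia, Mif and Dbi. Alyref, which carries mRNA out of the nucleus, had ratios of 1.93 (1.13 to 3.44), 2.14 (1.72 to 2.66) and 2.70 (2.42 to 3.0), and Myef2 had 2.26, 1.72 and 2.32. At E12 the direction turned for Alyref (0.870) and Rbm8a (0.625) against D = 0 cells that also lacked 6 cycling genes, and for Dbi (0.95) with C of at least 4. Lsm5 had 1.74, 1.47 and 2.52, and Sumo2, a small protein tag, had 1.49, 1.41, 1.50 and, at Adult, 1.59 (1.32 to 1.90). Ppia, the cyclophilin A gene and the most abundant of the 10, had 5340 against 4038 CPM at E12, 5075 against 4041 at E15, 6067 against 3738 at P2 and 3900 against 2209 at Adult. In dividing endocardial cells against their own D = 0 cells, Alyref had ratios of 1.88, 2.34 and 4.26, Hnrnpab 1.63, 2.11 and 2.63, and Ppia 1.27, 1.34 and 1.79, so these genes were higher there too.

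The 15 lowest of the 19 were Eln, Eif3f, Pam, Malat1, H19, Ftl1, S100a16, the mitochondrial genes mt-Co3 and mt-Co1, and 6 ribosomal protein genes, namely Rps21, Rps27rt, Rps27, Rpl37, Rps29 and Rpl37a. Malat1, a nuclear noncoding RNA, had 9829.6 against 13679.8 CPM at E12, 14343 against 17184 at E15, 13802 against 24160.5 at P2 and 28149.8 against 47332 at Adult, with ratios of 0.719, 0.835, 0.571 and 0.595, the last of which was 1.18 in the 7 Adult dividing cells with at most 1 artery UMI. H19, an imprinted noncoding RNA, had 0.803, 0.733 and 0.627 at E12, E15 and P2, and its neighbour Igf2 had 0.806 (0.575 to 1.13), 0.758 and 0.611. Ftl1, the ferritin light chain gene, had 0.764, 0.847 and 0.633, with 0.911 at Adult (0.815 to 1.02). Rps27rt, which is nearly identical to Rps27 and can share its reads, had 0.791, 0.803 and 0.606. Of the 15, Eln alone was lower by 1.5-fold at all 3 stages. Its E12 ratio was 0.822 when weighted to equal depth, 0.760 with C of at least 4 and 1.02 against D = 0 cells that also lacked 6 cycling genes, and in endocardial cells its ratio was 0.937, 1.48 and 1.85.

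**Figure D4:**
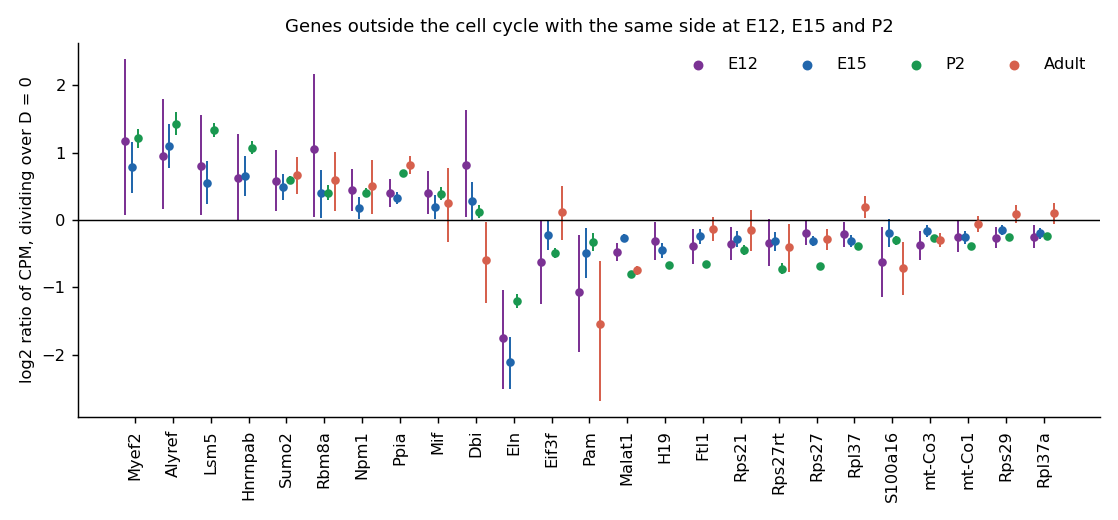
Log2 ratio of CPM in dividing over D = 0 coronary cells for the 10 higher and 15 lowest genes outside the cell cycle whose interval lay on the same side of 1 at E12, E15 and P2 (colours give the stage, vertical bars the 95% interval for counting error); a stage is missing where fewer than 20 UMIs were expected. The ratio of Alyref runs from 1.93 at E12 to 2.70 at P2, and Eln is the lowest, at 0.232 to 0.435.

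Energy metabolism differed by list and by gene. Glycolysis genes had 5687 CPM in dividing against 3721 in D = 0 cells at E12, a ratio of 1.53 (1.34 to 1.75) with 6 of 7 members higher by 1.5-fold (9.3% of genes outside the cycle), and 0.883 at E15, 1.08 at P2 and 1.01 at Adult. Gapdh had 1.59 at E12, 0.952 at E15, 1.40 at P2 and 1.89 at Adult, whereas Aldoa, the aldolase gene, had 1.63 at E12 (1.11 to 2.43), 0.678 in E15 cells (0.588 to 0.779), 0.515 at P2 (0.488 to 0.544) and 0.301 at Adult (0.189 to 0.457). Weighted to the same depth, the E12 glycolysis ratio was 1.28, and without cells with 2 or more artery UMIs it was 1.13. The E12 ratio was 0.992 for Gapdh against D = 0 cells that also lacked 6 cycling genes and 0.880 for Aldoa without cells with 2 or more artery UMIs. The 96 respiratory chain genes encoded in the nucleus had 0.977, 1.03, 1.02 and 0.958, and the mitochondrially encoded genes 0.797, 0.941, 0.857 and 0.815. The last of these was 1.87 in the 7 Adult dividing cells with at most 1 artery UMI. Median mitochondrial shares of UMIs were 2.14% in dividing and 2.86% in D = 0 cells at E12, 2.11% against 2.32% in E15 cells, 2.82% and 3.28% at P2 and 4.13% and 4.29% at Adult. Fatty acid genes had 1.50 at E12, 1.04 at E15, 0.927 at P2 and 0.615 at Adult. At E12, Fabp5 held 185 of the list's 225 UMIs in dividing cells, and the ratio was 1.04 with C of at least 4.

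Structural and housekeeping lists had ratios within 1.5-fold of 1 at every stage when all cells entered. Basement membrane genes had ratios of 1.02, 0.856, 0.879 and 1.07 at E12, E15, P2 and Adult. Caveolar genes, for the membrane pits of endothelium, had 0.898, 0.888, 0.921 and 0.706, and junction genes 0.926, 0.862, 0.850 and 0.703. Polyamine genes had 1.14, 0.958, 0.925 and 0.818, and translation factors 1.07, 0.947, 0.945 and 1.25. Proteasome and chaperone genes had 1.16, 1.06, 1.08 and 1.16, and heat shock genes 0.738, 0.999, 0.817 and 0.882. Imprinted growth genes had 0.973, 0.905, 0.888 and 0.718. In the 7 Adult dividing cells with at most 1 artery UMI, basement membrane genes had 1.71, junction genes 1.1, polyamine genes 0.372, translation factors 0.656, proteasome and chaperone genes 0.618 and heat shock genes 0.313.

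The genes that led each stage by the bound of their interval were partly set by single cells. At E12 they were Eif4ebp1 (430 against 147 CPM, 2.91-fold, 1.55 to 5.87), Tagln2 (1.89-fold) and Anxa2 (2.37-fold), and the embryonic globin gene Hbb-y was the lowest, with 14 UMIs against 71. At E15 the 4 leading genes were adult globins, and nearly all their UMIs came from the 1 cell with erythroid transcripts. Cmc2, a cytochrome oxidase assembly gene, followed with 135 against 43.6 CPM (3.09-fold, 2.06 to 4.66) and was 4.29-fold higher at P2. At P2 Diaph3 (77.8 against 1.74 CPM), Kifc1 (71.8 against 1.66), Pif1 and Arhgef39 led, among them a formin of cytokinesis (Diaph3), a spindle kinesin (Kifc1) and a DNA helicase (Pif1) that the cell cycle lists had not held, together with Ccl5, whose 92 UMIs lay in 1 cell. The lowest at P2 were Cxcl12, the artery gene Nebl (1.23 against 15.5 CPM), Tcp11l2, Tmem150a and Ccl7, with ratios of 0.0796 for Nebl, 0.140, 0.115 and 0.105 for the last 3.

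At Adult the leading genes were Cd74, Lgals1, Vim, Tagln2 and Ubald2. Cd74, an MHC class II chaperone gene, had 310 UMIs against 1498, of which most lay in the cell with leukocyte transcripts, and its ratio went from 10.0 to 0.0791 when cells of other types were left out. Lgals1, the galectin 1 gene, had 708 against 140 CPM (5.06-fold, 4.07 to 6.22) at Adult, with 1.46-fold at P2 and 1.28-fold at E15. Vim, the vimentin gene, had 2541 against 706 CPM (3.6-fold, 3.23 to 4.01) at Adult, but 1.13 at P2 and 0.878 at E15. The lowest were Fbln5, Gsn, Mgp, Clu and Tsc22d1. Gsn, the gelsolin gene, had 8 UMIs against 6354 and Clu 1 against 1527.

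Markers of other cell types were listed in full beside these results. The erythroid list of 12 genes had 338 CPM in dividing and 987 in D = 0 cells at E12, 4554 against 215 in E15 cells, 23.2 and 38.4 at P2, and 28.3 and 502 at Adult. Without its top cell the E15 ratio went from 21.2 to 0.187. The leukocyte list of 19 genes had 82.3 and 125, 33.1 and 54.4, 25.04 and 22.03, and 1812 and 376 CPM, and its Adult ratio went from 4.82 to 0.143 without 1 cell. The endocardial list, outside the rule, had ratios of 0.797, 0.765, 0.638 and 0.691. Mural genes had 0.576, 0.622, 0.438 and 0.113, cardiomyocyte genes 0.627, 0.706, 0.662 and 0.464, lymphatic genes 1.3, 1.31, 0.660 and 0.103, and valve genes 2.15 at E12, 1.15, 0.622 and 0.398. Of the 63 lymphatic UMIs in E12 dividing cells 22 lay in 1 cell, and the ratio was 0.864 without it and 10.5 with C of at least 4. Fibroblast genes had 2.85 at E12 on 46 against 13 UMIs, of which 20 lay in 1 cell, and 1.02, 0.775 and 0.205 later. Without cells of high doublet score the E12 ratio was 0.621 for fibroblast and 0.967 for valve genes. Neural genes had 0, 1, 11 and 0 UMIs in dividing cells. In the dividing cells the most abundant leukocyte gene was Pf4 from E12 to P2 and Lyz2 at Adult, with 16, 15, 9 and 5 of the 19 members at 0. The erythroid list was led by Hbb-y, Hbb-bs, Hba-a1 and Hbb-bs, with 6, 3, 5 and 9 of 12 at 0. Mural genes were led by Tagln, Abcc9, Rgs5 and Rgs5, with Myh11 at 0 up to P2, and cardiomyocyte genes by Tnni1, Tnni1, Myl2 and Myl2, with Myh6 at 0 at E12, E15 and Adult. Fibroblast genes were led by Lum, Col1a1, Wt1 and Dcn, and endocardial genes by Emcn at all 4 stages. Cells with over 1% of their UMIs in the leukocyte, erythroid, cardiomyocyte, mural or fibroblast list were 0, 2, 2 and 1 of the dividing and 3, 6, 21 and 91 of the D = 0 cells. At Adult, 41 D = 0 cells held over 1% mural and 34 over 1% fibroblast UMIs. Without all such cells, mural genes had 0.812 at P2 and 0.793 at Adult. Fibroblast genes then had 0.837 and leukocyte genes 1.45 at Adult. Erythroid genes had 0.928 at E12, 0.877 at E15, 1.94 at P2 and 0.668 at Adult. The part of other cell types' transcripts in the gene differences was not tested beyond leaving such cells out.

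The lists were also read in steps of D. At P2, artery genes stood at 4670 CPM in cells with D of 0, 3785 with D of 1, 2418 with D of 2 or 3, 1603 with D of 4 to 7 and 2065 with D of 8 or more. At E15 they stood at 2850, 1598, 1261, 1432 and 1464 CPM over the same steps. Most of the gap was present at D of 1 at E15 and at D of 2 or 3 at P2, and the steps above did not go lower in order. Splicing and RNA-binding genes stood at 8516, 9462, 11314, 12855 and 13216 CPM at P2 and at 8593, 10114, 11375, 10744 and 10869.7 at E15. Mature capillary genes went from 16878 to 14085 CPM at P2 and stayed between 7493 and 8143 at E15. At Adult, where only the steps of 0, 1 and 8 or more held at least 20 cells, artery genes stood at 7637, 6841 and 1481 CPM and mature capillary genes at 30229, 25709.5 and 13543.

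**Figure D5:**
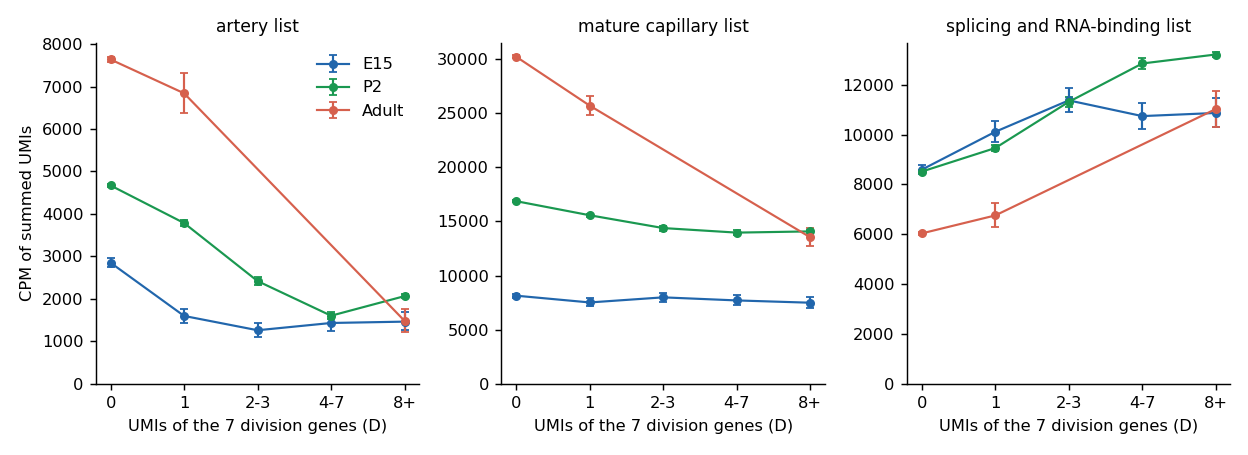
Summed CPM of 3 gene lists in coronary cells grouped by D, the UMIs of the 7 division genes, at E15, P2 and Adult; error bars are 95% intervals for counting error, all axes start at 0, and lines join the steps with at least 20 cells, so the Adult line skips 2 steps. Artery genes go from 4670 to 2065 CPM at P2 and from 7637 to 1481 CPM at Adult, while splicing genes go from 8516 to 13216 CPM at P2.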

How the data were processed

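Single-cell counts of 27998 genes were deposited by the authors as 1 matrix of UMI counts per stage, made with Cell Ranger 2.2 on mm10 per the submitters' processing notes. The E12 matrix held all barcodes, and those with at least 452 UMIs were kept, a cut-off computed from 3000 expected cells; E15, P2 and Adult barcodes were used as deposited. No other cell filter was applied. Doublets were scored with Scrublet in scanpy 1.11.5 and left out only as an alternative. Near-empty barcodes were those of E12 with fewer than 100 UMIs, read with and without barcodes of other libraries' cells.

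UMIs were summed over the dividing and the D = 0 cells of each stage and divided by the summed totals (CPM). With 1 library per stage no test was made. A ratio of CPM has a 95% interval from the exact conditional binomial distribution, which covers counting error only, and a gene was counted as higher or lower past 1.5-fold when at least 20 UMIs were expected in the dividing cells from the pooled CPM. Thinned shares are the expected share of cells that keep D of at least 2 among 500 or 1000 UMIs drawn from each cell. The script for the ratios was tested on simulated data.

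Members and gene lists were chosen with earlier results of these data known, so their counts are descriptions. Named genes were those outside the cell cycle with the interval on the same side of 1 at E12, E15 and P2 (up to 15 a side), the 5 highest and 5 lowest per stage by the nearer bound of the interval, the most abundant and up to 4 most different members of each list, and the main cycle genes. Genes of the S phase, G2/M, replication, cyclin, histone, chromatin and other mitosis lists counted as cell cycle. Endocardial cells, called alike with N over C, were set beside some results. Promoters were RefSeq sequences of GRCm38.p6, and gene models were those of GENCODE M21. Alternatives changed the depth weighting, scaling, filter, the D, C and N thresholds, and which cells entered, leaving out doubtful cells, cells with 2 or more artery UMIs or cells with shared barcodes. Python 3.11.15, NumPy 2.4.6, pandas 2.3.3, SciPy 1.17.1 and Matplotlib 3.10.9 were used.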

Additional observations from a re-analysis of the deposited data

Results flagged for a closer look

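Some ratios of dividing over D = 0 coronary cells lay on opposite sides of 1 at different stages. With 1 library per stage the difference between stages was not tested. Cdkn1c had a ratio of 1.71 at E12 against 0.595 at E15, 0.369 at P2 and 0.213 at Adult, and the E12 ratio was 0.737 in cells with N of 0. Aldoa had 1.63 at E12 against 0.515 at P2 and 0.301 at Adult, and its E12 ratio was 0.880 without cells with 2 or more artery UMIs. Dbi, which encodes an acyl-CoA binding protein, had 1.76 at E12 against 0.662 at Adult, and its E12 ratio was 0.95 with C of at least 4.

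Lists of other cell types also lay on opposite sides of 1. Erythroid genes had a ratio of 21.2 at E15 against 0.343 at E12, 0.603 at P2 and 0.0565 at Adult, and 2045 of the 2063 E15 UMIs lay in 1 cell. Without cells of other types the erythroid ratio was 0.928 at E12, 0.877 at E15, 1.94 at P2 and 0.668 at Adult. Leukocyte genes had 4.82 at Adult against 0.608 at E15, with 249 of 256 Adult UMIs in 1 cell. Fibroblast genes had 2.85 at E12 against 0.205 at Adult, and valve genes had 2.15 at E12 against 0.622 at P2 and 0.398 at Adult. Their E12 ratios were 0.621 and 0.967 without cells of high doublet score, 0.462 and 0.569 without cells with 2 or more artery UMIs, and for fibroblast genes 17.0 against D = 0 cells that also lacked 6 cycling genes. At Adult, 34 D = 0 cells held over 1% fibroblast UMIs, and the fibroblast ratio was 0.837 without cells of other types.

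In the E12 matrix, 6007 barcodes that were cells of the E15 library but no cells at E12 had a median of 15 UMIs. Barcodes that were cells of P2 (1268) or Adult (908), or of none of the 3 (150201), had a median of 2.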

How the results depend on the processing

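No paired analysis was possible because each stage was 1 library. Depth limited E12 and Adult most, with 39 and 38 dividing cells. Artery genes kept a ratio under 1 at every stage in each alternative run for them (at most 0.988 at E12, 0.630 at E15, 0.476 at P2 and 0.263 at Adult), and leaving out cells with artery UMIs of 2 or more was not run for them. Splicing and RNA-binding genes stayed above 1 from E15 on, with 0.878 to 1.16 at E12. Where a value below differs, the cause was not tested unless fewer cells or genes entered. Some of the alternatives were chosen after seeing the data, namely leaving out cells of other types and cells with shared barcodes, a longer cell cycle list, and near-empty E12 barcodes without those of other libraries' cells.

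Counts of higher and lower genes outside the cell cycle moved with the filter and with the cells that entered. With 10 expected UMIs they were 210 and 137 at E12, 342 and 507 at E15, and 237 and 624 at Adult. With no filter they were 3502 and 2981, 2630 and 3806, 2087 and 5196 at P2, and 2827 and 7916. Weighting to equal depth gave 93 and 71 at E12. With D = 0 cells also free of 6 cycling genes and so weighted they were 188 and 138 at E12, 234 against 230 in E15 cells, and 1367 higher at P2. The study's limits on UMIs, genes and mitochondrial share left 30 and 24 at E12 (35 dividing cells) and 28 and 137 at Adult (26 cells). Leaving out cells with 2 or more artery UMIs (artery-UMI cells) kept 18, 142, 31 and 7 dividing cells, and gave 11 and 15 at E12, 88 against 62 in E15 cells, 88 against 142 at P2, and 6 and 10 at Adult. The E15 split thus turned from 39.2% higher to 58.7% and, against the D = 0 cells free of cycling genes, to 50.4%. Median centring gave 144 higher at Adult. All genes together had a median log2 ratio of -0.12 at P2 and -0.16 at Adult, and leaving cell cycle genes out of the total made higher genes 43.9% of those called at P2, against 32.0%.

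Dividing shares at E12 were 48.6% with C of at least 4, and 8.06% and 20.6% after thinning to 500 and 1000 UMIs. At E15 they were 14.7% with D of at least 3 and 8.91% and 20.5% thinned. At P2 they were 12.6% with D of at least 9, 20.8% with D of at least 2, and 7.02% and 11.6% thinned. At Adult they were 0.663% within the study's limits and 0.443% thinned to 500.

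Of 36 lists of endothelial genes, cell functions and the cell cycle, 15 at E12, 27 in E15 cells, 25 at P2 and 23 at Adult kept their side of 1 in each alternative run for them, and 10, 2, 4 and 15 moved by over 1.5 times in some alternative. At E12, equal depth gave 2.04 for CDK inhibitors, 1.79 for flow-response, 1.61 for MHC and 0.887 for replication genes. The D = 0 cells free of 6 cycling genes gave 2.07 for immediate early genes, 2.06 for p53 targets and 0.328 for interferon genes, and C of at least 4 gave 1.68 for G2/M genes. Without artery-UMI cells, S phase genes had 0.729, CDK inhibitors 0.708 and flow-response genes 2.22 at E12, heat shock genes 1.26 and p53 targets 0.58 at P2, and all 15 Adult moves were of this kind, on 7 cells, among them mitochondrially encoded genes with 1.87. These ratios past 1.5-fold turned. At E12, without cells of high doublet score, valve genes had 0.967 and fibroblast genes 0.621. With C of at least 4, Notch genes had 2.12, erythroid genes 1.24, Fabp5 0.988, Dbi 0.95 and Pam 1.14. With N of 0, Cdkn1c had 0.737. Against D = 0 cells free of the 6 cycling genes, Eln had 1.02, Alyref 0.870, Rbm8a 0.625 and Gapdh 0.992. Without artery-UMI cells, Notch genes had 1.06, valve genes 0.569, fibroblast genes 0.462, erythroid genes 1.12, Cdkn1c 0.528 and Aldoa 0.880. At E15, erythroid genes had 0.213 within the study's limits, 0.132 with D of at least 3, 0.201 with C of at least 4, 0.191 with N of 0, 0.157 without artery-UMI cells and 0.877 without cells of other types. Leukocyte genes had 1.13 with C of at least 4 and 1.02 without cells of other types. At P2, erythroid genes had 1.51 at equal depth, 1.93 without high doublet scores, 2.61 against D = 0 cells free of the 6 genes and 1.94 without cells of other types. Lymphatic genes had 1.12 with N of 0 and 1.3 without artery-UMI cells. Cxcr4 had 1.00 against D = 0 cells free of the 6 genes, and Kcne3 0.810 without artery-UMI cells. At Adult, leukocyte genes had 0.615 at equal depth, 0.501 within the limits and 0.222 with C of at least 4. Cd74 had 0.157 within the limits, 0.0537 with C of at least 4, 0 without artery-UMI cells and 0.0791 without cells of other types. In the 7 Adult dividing cells left with at most 1 artery UMI, vein genes had 1.21, VEGF genes 1.39, Kdr 1.36 and Malat1 1.18.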
